A study of Drosophila melanogaster with 3 samples.

Results

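Runt binding was described at 6 segment polarity genes, engrailed (en), invected (inv), wingless (wg), hedgehog (hh), gooseberry (gsb) and gooseberry-neuro (gsb-n), out of 13945 protein-coding genes on the 6 chromosome arms. They were chosen by name as genes that pattern the segment, not by any measured value. A peak was counted for a gene when its summit lay in the gene span or within 10 kb of it. The assay was ChIP-seq, in which DNA bound by a protein is precipitated with an antibody and sequenced, applied to embryos of a transgenic Drosophila melanogaster line that stably expresses Runt with GFP fused to its C-terminus. Whole embryos aged 0 to 16 hours were used, their sex was not collected, and the precipitation with an antibody against GFP was done in 3 biological replicates. All 3 replicates came from the same line and were set against the same control, and there was no second condition. The lists held 30000 peaks for each replicate and for the pooled replicates, and 3065 peaks in the authors' list thresholded by irreproducible discovery rate (IDR), a measure of how well peak ranks repeat between replicates.

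Segment polarity genes act after the pair-rule genes and fix the anterior and posterior of every body segment. en and inv encode paralogous homeodomain repressors of posterior compartment cells, hh encodes the Hedgehog ligand that those cells secrete, and wg encodes the Wnt ligand of the cells just anterior to them. gsb and gsb-n encode transcription factors with a paired domain and a homeodomain, and gsb takes part in maintaining wg expression. Runt is a RUNX-family transcription factor and a pair-rule gene product, known from genetics to activate or repress en and wg stripes depending on the factors present with it. A peak list holds no expression values, so the striped expression of the genes is background and was not measured here.

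The sequences below, apart from the intron consensus of wg, are those at the peaks on which the accounts of wg and hh turn. Those peaks are described further on. They were read from the RefSeq Release 6 genome (build dm6, plus strand, 5′ to 3′). The first is a whole peak, and those named summits cover 50 bases on either side of a pooled summit. The intron consensus is a match near the edge of a weak wg peak, printed with its surroundings. That peak, with its summit 2084 bases downstream of the wg start, had pooled rank 26189 and no overlapping peak in any replicate. The match lies 195 bases from its summit. Capitals mark the RUNX consensus, searched on both strands in the form TGTGGTT, the form TGTGGTC, the form TGCGGTT and the form TGCGGTC. Sequences with no capitals hold no match.
wg distal peak, chr2L:7296037-7296144: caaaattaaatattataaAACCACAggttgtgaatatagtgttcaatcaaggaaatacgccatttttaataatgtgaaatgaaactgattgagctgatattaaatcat
wg upstream summit, chr2L:7301646-7301746: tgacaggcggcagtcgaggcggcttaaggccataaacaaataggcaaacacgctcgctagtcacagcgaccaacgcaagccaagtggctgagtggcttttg
wg promoter summit, chr2L:7306925-7307025: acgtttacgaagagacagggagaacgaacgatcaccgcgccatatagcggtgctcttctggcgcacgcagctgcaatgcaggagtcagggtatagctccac
wg intron consensus, chr2L:7309028-7309068: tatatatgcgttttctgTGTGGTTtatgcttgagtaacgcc
hh intron summit, chr3R:23130295-23130395: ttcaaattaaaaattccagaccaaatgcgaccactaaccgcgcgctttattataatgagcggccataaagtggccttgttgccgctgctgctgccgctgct
hh neighbouring intron summit, chr3R:23130892-23130992: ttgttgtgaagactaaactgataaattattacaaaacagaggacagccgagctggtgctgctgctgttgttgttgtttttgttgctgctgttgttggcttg
The distal wg peak holds the match AACCACA, the reverse complement of TGTGGTT, at its left edge, 52 bases from the summit. Neither of the hh summit windows nor the promoter and upstream windows of wg holds a match.

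IDR peaks were found at en, inv and hh, and none at wg, gsb or gsb-n. That is 3 of 6 genes, against 47.0% of all protein-coding genes counted in the same way, so the share lay near the background. The 3 genes held 4 distinct IDR summits, 2 of them at inv and 1 each at en and hh. These were weak members of the IDR list, which consists of the pooled peaks with the highest signal. Ranked by that signal, where rank 1 is the strongest, they ran from 2133 to 2834 with a median of 2270. All 4 lay past the midpoint of that list. Whole embryos over 16 hours of development were pooled, so binding in few cells and weak binding in many cannot be told apart. Read depth is unknown from the peak lists.

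The count depended on which replicates were required. Among each replicate's own 3065 strongest peaks, en, inv and hh had one in replicate 1 (48.5% of all genes did), and inv and hh had one in replicate 2 (background 47.3%) and in replicate 3 (background 48.0%). When IDR peaks had to be matched by such strong peaks in both remaining replicates, leaving out replicate 1 kept hh alone, leaving out replicate 2 kept no gene, and leaving out replicate 3 kept inv alone. The shares of all genes left by the same matching were 38.0%, 37.3% and 36.5%, in that order. None of the 4 IDR peaks in reach was overlapped by a peak among the 3065 strongest in every replicate.

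**Figure D1:**
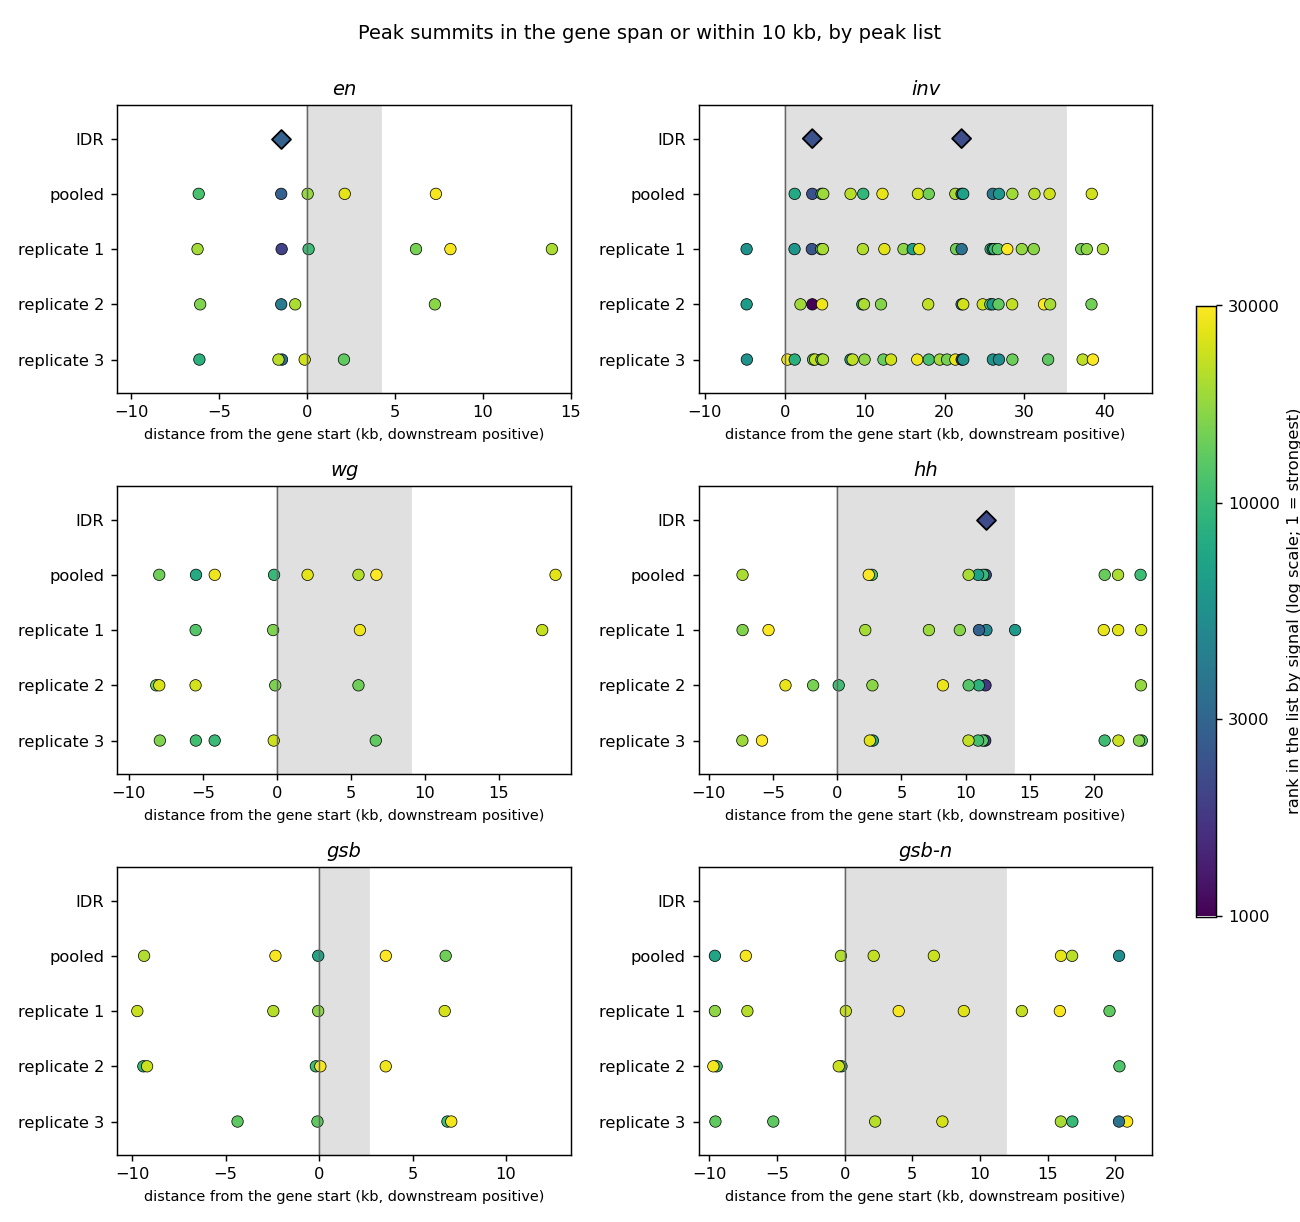
Summits within 10 kb of each of the 6 genes, plotted by distance from the gene's start in kb (positive in the direction of transcription) for each peak list. Shading is the gene span and colour the rank within the list. IDR summits appear at en, inv and hh, and summits of the replicate lists fill the introns of inv.

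The 6 genes differed in how many pooled summits they held, from 18 at inv to 5 at en and 5 at gsb. inv had 22, 18 and 25 summits in replicates 1, 2 and 3, hh had 11, 9 and 12, and gsb-n had 8, 5 and 8. en had 6, 4 and 5, wg had 4, 5 and 5, and gsb had 4, 5 and 4. Only inv and hh therefore stood above the other 4 genes in every replicate, without overlap, and inv also stood above hh. The order ran with the length of the window searched, 55.2 kb for inv and 33.7 kb for hh against 22.7 kb for gsb. Per 10 kb of window the pooled counts were 3.26 for inv, 2.96 for hh, 2.75 for wg, 2.50 for gsb-n, 2.20 for gsb and 2.07 for en. The median over all genes was 2.15 per 10 kb and 5 summits per gene. By density 71.9% of all genes lay below inv and 48.8% below en, so none of the 6 was extreme on this scale.

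Of the 51 distinct pooled summits at the genes, 30 lay in introns (58.8%, against 45.6% of all pooled summits) and 12 in intergenic sequence (23.5% against 21.9%). A further 8 lay within 500 bases of an annotated start (15.7% against 27.7%) and 1 in an exon (1.96% against 4.76%). The introns of inv alone held 15 of them, and the differences from all summits were not tested. Inside the spans of the 6 genes lay 30 of the 51. The median rank of the 51 was 18542 of 30000, and 40 of them had one of the 6 genes as the nearest protein-coding start. The deposited −log10 q-value, which rises with the evidence for a peak, ran from 3.82 down to 0.406 among the 51. It was 0.763 for the peak at the median rank. Many of the 51 are thus weakly supported as sites of binding. gsb and gsb-n shared 3 summits, which lie within reach of both. The distinct summits numbered 51, 42 and 57 in replicates 1, 2 and 3.

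**Figure D2:**
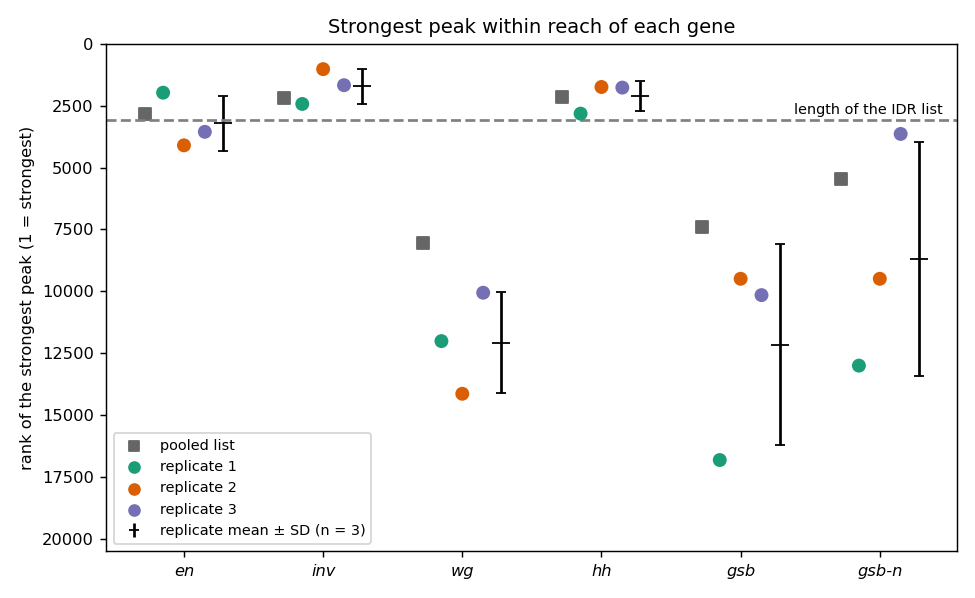
Rank of the strongest peak of each gene in the pooled list and in each of the 3 replicate lists (rank 1, the strongest, at the top), with the replicate mean and SD beside them. inv and hh lie at ranks of 1017 to 2817 in the replicates, and wg and gsb at 9495 to 16825.

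Within 10 kb, the rank of each gene's strongest peak set inv, hh and en apart from wg and gsb in all 3 replicates. inv ranked 2425, 1017 and 1666 in replicates 1, 2 and 3, a mean of 1703 ± 705 (SD, n = 3). hh ranked 2817, 1739 and 1764, a mean of 2107 ± 615. en ranked 1969, 4099 and 3552, a mean of 3207 ± 1106. These ranges overlap. Compared within each replicate, inv was ahead of hh in all 3. en was ahead of both in replicate 1 and behind both in replicates 2 and 3. The order was not tested. gsb-n ranked 13007, 9495 and 3638, a mean of 8713 ± 4733, and wg ranked 12016, 14145 and 10059, a mean of 12073 ± 2044. gsb ranked 16825, 9495 and 10156, a mean of 12159 ± 4055. The values of gsb-n, wg and gsb overlap one another, and gsb-n in replicate 3 reached the range of en. The value 9495 of replicate 2 is a single peak at the gsb-n promoter that counts for gsb and gsb-n. In replicates 1 and 3 the gsb-n peaks lay 379 and 322 bases from the start of another gene, Nplp1. The place of wg depended on the reach. Within 20 kb, a setting added after seeing the data, its strongest peak ranked 648, 1259 and 1156, a mean of 1021 ± 327, which overlaps the ranges of inv and hh at that reach, with means of 1551 ± 486 and 1383 ± 316. The wider reach also changed the peaks of these genes. For inv, the replicate 1 value became 1969, which is the peak upstream of en. For hh, the values became 1275, 1739 and 1135, from other peaks in replicates 1 and 3. gsb then ranked 5031, 5225 and 5582, still weaker than en at 1969, 4099 and 3552.

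Set against all genes, the strongest pooled peaks of hh, inv and en lay near the middle or on its stronger side. Those of gsb-n, gsb and wg lay on the weaker side. A stronger peak was held by 39.1% of all genes for hh (rank 2133), by 39.8% for inv (rank 2203) and by 45.2% for en (rank 2834). The corresponding shares were 61.9% for gsb-n (rank 5465), 69.1% for gsb (rank 7407) and 71.0% for wg (rank 8047). In replicates 1, 2 and 3 they were 46.4, 34.0 and 34.6% for hh, 42.9, 23.6 and 33.3% for inv and 38.2, 54.3 and 50.9% for en. They were 83.1, 74.5 and 51.5% for gsb-n, 87.6, 74.5 and 76.0% for gsb and 81.3, 83.0 and 75.8% for wg. No share was adjusted for window length, 55.2 kb for inv and 33.7 kb for hh against a median of 22.2 kb over all genes. The median over the 6 genes was rank 4149.5, against a median of 2954 over the 12838 genes, 92.1% of all, with a pooled summit in reach. Over the single replicates the median of the 6 was 7416.5, 6797 and 3595, a mean of 5936 ± 2051 (SD, n = 3).

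**Figure D3:**
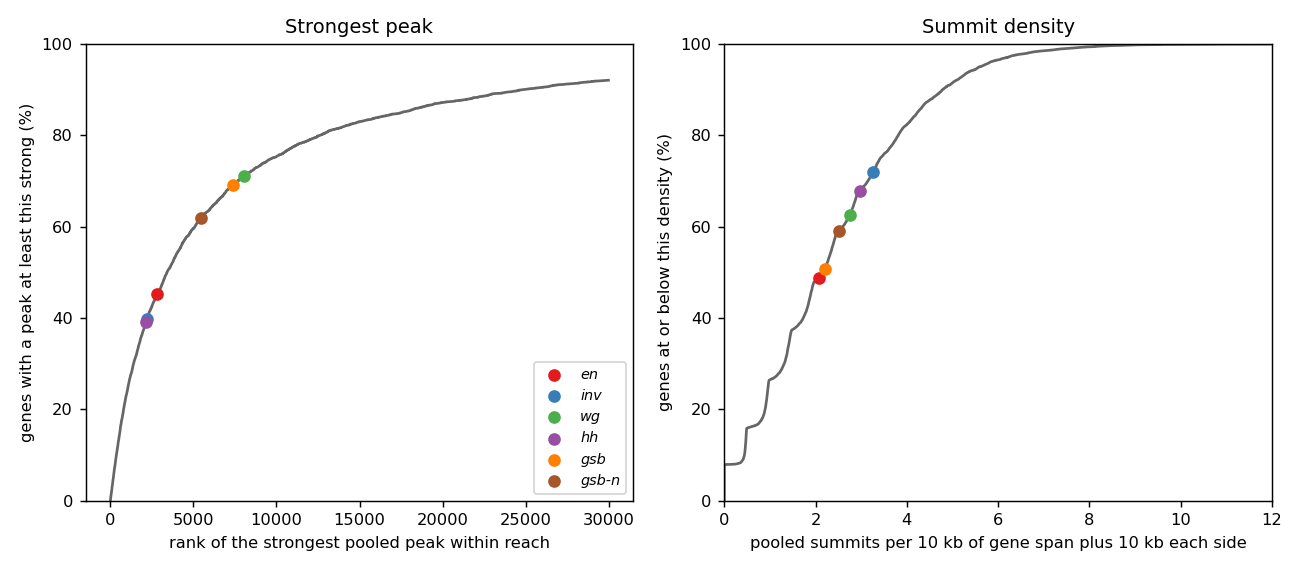
Cumulative share of protein-coding genes, in percent, by the rank of the strongest pooled peak (left) and by pooled summits per 10 kb (right), with the 6 genes marked on the curves. hh, inv and en lie on the stronger side of the median rank of 2954 and gsb-n, gsb and wg on the weaker side, and by density the 6 lie between 48.8% and 71.9% of genes.

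en and inv lie side by side on chromosome 2R and are transcribed towards each other, with 14311 bases between their 3′ ends and 53745 bases between their starts. The pair is known to be co-regulated, and DNA just upstream of en is known for Polycomb response elements. en (FBgn0000577) spans 11524006 to 11528210 on the minus strand, and inv (FBgn0001269) spans 11474465 to 11509695 on the plus strand (dm6). The IDR peak of en, from 11529481 to 11529884, has its summit 1473 bases upstream of the start in intergenic DNA. It was matched at ranks 1969, 4099 and 3552, with summits within 45 bases of one another in the 3 replicates. Of the 6 genes, en was the only one whose strongest peak lay at the same site, within 100 bases of the pooled summit, in every replicate. The 50 bases on either side of that summit have a GC content of 57.4% and hold the letters GAGAG, which form a motif of the GAGA factor, and the nearest RUNX consensus lies 158 bases away within the peak.

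The next pooled peaks of en were much weaker. One lay 6162 bases upstream at rank 11191, with replicate ranks of 18790, 15525 and 8828. Another had its summit 31 bases into the gene at rank 17458, overlapped in replicates 1 and 3 at ranks 10281 and 23883 and not in replicate 2. The en promoter itself thus ranked far below the site 1.5 kb upstream in the pooled list. By nearest start en was credited with 14 pooled summits, more than the 5 within reach, since summits in and beyond the 3′ part of inv, and others more than 10 kb upstream of en, also have the en start as their nearest.

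inv held both of its IDR peaks inside its introns. The stronger, from 11496401 to 11496804, has its summit 22138 bases downstream of the start and pooled rank 2203. Its replicate ranks were 3606, 3796 and 1666, a mean of 3023 ± 1179 (SD, n = 3), and the 3 summits lay within 9 bases. The other, from 11477707 to 11478110, has its summit 3444 bases downstream and pooled rank 2337. Its replicate ranks were 2425, 1017 and 11910, a mean of 5117 ± 5925, with the summits spread over 158 bases. The first site was therefore even between replicates, while the second was strong in replicates 1 and 2 and weak in replicate 3. A pooled peak at 26044 bases downstream followed at rank 3846, with replicate ranks of 4202, 6127 and 5818, all of them beyond 3065. A summit at rank 7775 fell exactly on the second annotated start of inv, 1243 bases downstream of the first, and was overlapped at ranks 5972 and 8610 in replicates 1 and 3 but by no peak of replicate 2.

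hh (FBgn0004644) lies on chromosome 3R from 23128169 to 23141906 on the minus strand. Its IDR peak, from 23130143 to 23130546, has its summit in an hh intron 11561 bases downstream of the start. Peaks overlapping it ranked 4784, 1739 and 1764 in replicates 1, 2 and 3, a mean of 2762 ± 1751 (SD, n = 3), with summits within 93 bases. It was thus within the 3065 strongest in replicates 2 and 3 and outside them in replicate 1, whose strongest hh peak, at rank 2817, had its summit 11034 bases downstream. Further pooled summits stood beside it, at 10964 bases with rank 6879 and at 11362 bases with rank 10024. The nearest protein-coding start to the IDR summit was not that of hh but that of CG31457, 2364 bases away. No IDR summit had the hh start as its nearest, and the best pooled summit that did ranked 11373. No pooled summit lay within 500 bases of the hh start, where replicate 2 alone had a summit, 114 bases downstream at rank 10554.

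wg (FBgn0284084) lies on chromosome 2L from 7307159 to 7316265 on the plus strand. Within 10 kb it had no IDR peak, and its strongest pooled summit lay 5463 bases upstream at rank 8047, with replicate ranks of 12016, 23836 and 10697. The wg promoter had a summit 184 bases upstream of the start at rank 9766, with replicate ranks of 15483, 15237 and 23276. A summit 7952 bases upstream at rank 14195 was overlapped at ranks 14268 and 15575 in replicates 2 and 3 and by no peak of replicate 1. All of these lay beyond rank 10000 in every replicate that had them.

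The strongest peak with wg as its nearest start lay just outside the 10 kb reach. It runs from 7296037 to 7296144 on chromosome 2L, in intergenic DNA, with its summit 11049 bases upstream of wg, and is the first sequence printed above. Its rank was 806 in the pooled list and 648, 1259 and 1156 in replicates 1, 2 and 3, a mean of 1021 ± 327 (SD, n = 3). The 3 summits lay within 17 bases. Of the 5 IDR peaks in reach of one of the genes or nearest to one, it was the only one within the 3065 strongest of every replicate. At 108 bases it is also narrow, a width under 200 bases shared by 465 of 3065 IDR peaks (15.2%), and the 50 bases on either side of its summit have a GC content of 25.7% against a median of 41.6% over all pooled summits. Whether this width and base composition affect its signal was not tested. Counted by nearest start in place of distance, 3 of 6 genes, en, inv and wg, had an IDR summit, against 14.9% of all genes, while hh lost its own. This count depends on how far away the next start lies, and the 14.9% was not adjusted for that. By nearest start en and inv were each credited with 14 pooled summits and wg with 10.

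**Figure D4:**
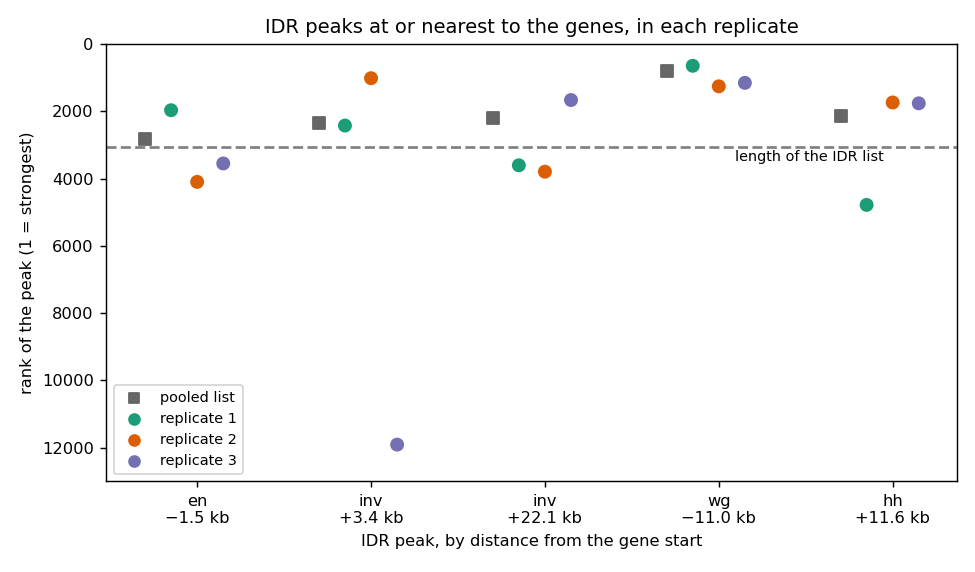
Rank of the 4 IDR peaks within 10 kb of en, inv and hh, and of the IDR peak nearest to wg, in the pooled list (squares) and in each replicate (circles), with rank 1 at the top. The wg peak lies above the dashed line at rank 3065 in all 3 replicates, and the inv peak at 3.4 kb lies at rank 11910 in replicate 3.

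gsb (FBgn0001148, 25061964 to 25064643, plus strand) and gsb-n (FBgn0001147, 25040383 to 25052331, minus strand) lie beside each other on chromosome 2R and are transcribed away from each other, with 9633 bases between their starts. Neither had an IDR peak. The strongest summit of gsb was at its promoter, 44 bases upstream of the start, at rank 7407, with replicate ranks of 16825, 10409 and 13059. It counts for gsb-n as well, as does the gsb-n promoter summit 275 bases upstream of that gene's start at rank 20046, overlapped at ranks 22640 and 9495 in replicates 1 and 2 and by none in replicate 3. A summit 6773 bases downstream of the gsb start ranked 14084 in the pooled list. Both promoters thus held low-ranked pooled peaks, with deposited −log10 q-values of 1.93 at gsb and 0.692 at gsb-n. The evidence for a peak at the gsb-n promoter was therefore slight. The strongest summit in reach of gsb-n, at rank 5465, lay 20283 bases downstream of its start at the promoter of Nplp1, 329 bases from that gene's start. Replicate 1 had no peak over it, while replicates 2 and 3 had peaks at ranks 11779 and 3638.

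Of the 51 pooled peaks at the 6 genes, 19 had an overlapping peak (1 base or more) in every replicate. This share was 37.3%, with a 95% Clopper-Pearson interval, which is exact and covers counting error alone, of 24.1 to 51.9, against 48.6% of all 30000 pooled peaks. Adjoining pooled peaks can share the same replicate peak, so these cases are not independent. Among the 7500 strongest pooled peaks it was 9 of 10 at the genes (90.0%) against 93.9% of all, and among the next 7500 it was 7 of 13 (53.8%) against 59.1%. It was 1 of 13 (7.69%, exact interval 0.195 to 36.0) against 27.1% in the following 7500, and 2 of 15 (13.3%) against 14.0% in the 7500 weakest. At the genes the share was thus lowest in that 1 of 13, whose interval contains the value of all peaks. By gene, inv had 9 of 18 matched in all replicates, hh 5 of 10, en 2 of 5, wg 2 of 8, gsb 1 of 5 and gsb-n 1 of 8. Peaks present in all replicates were most numerous at inv and hh, the genes with the longest windows and the most pooled peaks. As shares, 9 of 18 and 5 of 10 lay near the 48.6% of all pooled peaks.

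The RUNX consensus was found within 50 bases of 2 of 51 pooled summits at the genes (3.92%, 95% exact interval 0.478 to 13.5), both of them in inv. All pooled summits held it in 7.66% of cases, all IDR summits in 9.36%, and windows of the same width 500 bases to each side of all pooled summits in 3.93%. The same side windows of the 51 summits held it in 6 of 102 cases (5.88%), above the share at the summits themselves. The interval contains all 4 of these shares, so no difference is read from the 51 summits. It covers counting error alone, and neighbouring summits, such as the 18 in reach of inv, are not independent. The side windows of the 51 also lie beside the same summits, and no paired comparison was made. None of the 4 IDR summits had it within 50 bases. Over whole peaks it lay in 15 of 51 at the genes (29.4%) against 21.9% of all pooled peaks, and in 3 of 4 IDR peaks against 20.5% of all. These differences were not tested. Most of the 15 peaks are at inv, and 2 of them, at ranks 8829 and 18261, share the same match. A match lay exactly at the summit of the pooled peak 22337 bases downstream of the start, which adjoins the stronger IDR peak of inv. Over the whole windows, matches per 10 kb numbered 8.15 for inv, 7.41 for hh, 6.61 for en, 5.73 for gsb, 5.32 for gsb-n and 2.40 for wg, against 4.77 over the arms. hh had 25 matches in its window and none inside a pooled peak, while 11 of the 45 matches of inv lay inside one.

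Motifs of other factors were counted in the same windows. GAGAG, bound by GAGA factor, lay within 50 bases of 6 of 51 summits (11.8%) against 13.2% of all. TAATTA, a homeodomain motif, lay at 2 of 51 (3.92%) against 6.94%, and CAGGTAG, the motif of Zelda, at 0 of 51, which allows a share of up to 6.98% (exact interval), against 0.36%. All were searched on both strands, and a missing match says only that the letters are absent from the window.

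Neighbouring genes and other genes of the segmentation pathway were counted in the same way, against the same 47.0%. Each rank given is that of the gene's strongest IDR summit in reach. Of 13 other segment polarity genes 7 had an IDR summit, led by ptc, the Hedgehog receptor, at rank 384, smo, the transducer downstream of it, at 401 and fz, a Wnt receptor, at 402. nkd, a feedback inhibitor of Wnt signalling, followed at 488, dsh, a Wnt signal transducer, at 914, and the T-box genes mid and H15 at 929 and 1780. arm, fu, lbe, lbl and mirr had pooled summits alone, and ci had none. All 7 ranks are ahead of 2133, the best IDR rank within reach of the 6 genes. The best pooled ranks of arm, fu, lbe, lbl and mirr, from 3648 to 6953, are behind it. None of these ranks was adjusted for the length searched. fz had 60 pooled summits in reach, nkd 53 and ptc 24, while mid had 14, smo 11, H15 9 and dsh 3. The 6 genes had 5 to 18. For smo and dsh, however, the start nearest to the peak was that of another gene, CG17075 and CG1737. Of 10 genes of the pair-rule list 4 had an IDR summit, run at rank 174, slp1 and slp2 at a shared 232 that lies nearer to slp2, and ftz-f1 at 812. eve, ftz, h, odd, prd and opa had none within 10 kb, though the start of h was the nearest to an IDR summit beyond that reach. Among the neighbours, Wnt10 and Wnt6 beside wg had IDR summits at ranks 1823, nearest to the start of ninaC, and 1977, and Wnt4 had none. tou beside en had 4, the strongest at rank 547, and E(Pc) had none.

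For each gene, the gene whose strongest ranks in the 3 replicates were nearest was sought among all protein-coding genes that share no peak with it, by Euclidean distance of log10 ranks. CG13786 was nearest to en, at 0.0487 with ranks of 2032, 4153 and 3952, and CG30411 to inv, at 0.0591. CG17931 was nearest to hh at 0.0409, dpr11 to wg at 0.0199, CG13062 to gsb at 0.0618 and Trissin to gsb-n at 0.0578. The measure rests on 3 values per gene.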

How the data were processed

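Anti-GFP ChIP-seq of Runt-GFP embryos had been done in 3 biological replicates, which keep the numbers given in the labels. Per the readme files, peaks were called on each replicate alignment, and on the pooled alignments, against a shared control, and the IDR list was derived from these lists. For the aligner, peak caller and IDR threshold, the sources used here give no name or value. The signal value of each peak is the authors' own, of unstated scaling, and served to rank the peaks of a list. The deposited −log10 q-value was 3.82 for every IDR peak, so it ranked none of them. The 3065 IDR peaks equalled the strongest pooled peaks. No row was identical between replicates. The control and signal tracks were not analysed here.

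Summits were set against Ensembl release 115 genes (assembly BDGP6.54, with the arm lengths of dm6), and coordinates are 1-based. A peak was a promoter peak within 500 bases of any annotated start, and otherwise exonic, intronic or intergenic. Motifs were searched within 50 bases of summits. The 6 genes, gene lists and comparisons were chosen with earlier results of these data known. Named were all 6 genes, their IDR summits and 3 strongest pooled summits, list genes with an IDR summit, and the gene nearest in rank; other summits and genes named were chosen after their values were seen. No test was made, since there is 1 group. Alternatives were other distances, overlaps, motif forms and list lengths, leaving out each replicate, and, added after seeing the data, each replicate's own strongest peaks and the strongest ranks within 20 kb. Gene assignment, motif search and overlap were tested on simulated data. Software was matplotlib 3.10.9, scipy 1.17.1, pandas 2.3.3 and numpy 2.4.6 under Python 3.11.15.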

Additional observations from a re-analysis of the deposited data

How the results depend on the processing

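The number of the 6 genes with an IDR peak was 3 within 10 kb (47.0% of all genes) or 5 kb (33.8%), 4 within 20 kb (64.5%), which adds wg, and 2 inside gene spans alone (9.21%). It was 4 among a list of pooled peaks 2 times as long (64.4%) and 0 among IDR peaks before the list's midpoint (31.7%), with 0 distinct summits. These shares of all genes were not adjusted for gene or window length. The 10 kb windows of the 6 genes ran from 22.7 kb to 55.2 kb, against a median of 22.2 kb over all genes. Leaving out a replicate gave 0 to 1 genes and 0 to 1 distinct summits, from lists that the matching also shortened to 1986 to 2147 peaks. The distinct IDR summits, 4 within 10 kb, numbered 7 within 20 kb, 7 among the longer pooled list, and 2 among the strongest peaks of replicate 2 and 2 among those of replicate 3. The distinct pooled summits, 51 within 10 kb, numbered 84 within 20 kb and 30 inside gene spans. The share of pooled peaks matched in all 3 replicates, 37.3%, was 19.6% when summits had to lie within 100 bases, and 41.2% to 54.9% when 1 replicate was left out and 2 had to match. The share of summits with a RUNX motif, 3.92%, was 25.5% with the shorter cores TGTGG or TGCGG, which 34.6% of all pooled summits hold. The median strongest rank of the 6 genes, 4149.5, was 5196 to 7142.5 from the mean ranks of 2 replicates, the highest without replicate 3, and 2518.5 within 20 kb in the pooled list. No paired analysis was possible because there is 1 group of samples.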

Other observations

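A site near inv was called in every replicate but not in the pooled list. Its summits lay 4777, 4776 and 4745 bases upstream of the inv start in replicates 1, 2 and 3, within 32 bases of one another, at ranks 5667, 6466 and 5696. No pooled peak overlaps it. Sites whose summits lay within 100 bases of that of replicate 1 in both other replicates numbered 9 at the 6 genes, with summits spread over a median of 45 bases, and 6811 in the genome, and 46 of these 6811 (0.675%) had no pooled peak.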
